A study of Mus musculus with 63 samples.

Results

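The genes Chrna4, Apol10a, Mgat4c, Plbd1, Gsn, Ms4a8a and Spink1 were described in mouse small intestinal organoids and epithelial cells that lost the Mediator kinases CDK8 and CDK19. They were taken by gene name, selected on their rises in CPM after CDK8 deletion in Cdk19-null organoids, and they are 7 of the 54752 genes in the count tables. Because the choice rests on the responses of the VillinCreERT2; Cdk8 fl/fl; Cdk19 ko/ko organoids, the values of that line are given as a description without a test. The choice as stated does not rest on the kinase-dead line, the single knockouts, the control lines or the isolated intestinal epithelial cells (IECs), and there each gene was tested. Earlier results of these data were known when the genes were chosen, so these tests may not be independent of the choice. The counts by setting rest on unlike measures. All 7 genes were above vehicle without overlap at days 5, 7 and 10 of the time course, but only Chrna4 was at day 3. In the kinase-dead line 5 of 7 were above vehicle without overlap. In IECs 3 were above VillinCreERT2, Chrna4 among them at or under 3 counts, and 1 was below. By test, 4 of 7 were called higher in the kinase-dead line, where the Chrna4 call was kept in 1 of 6 settings that left out a library. None of the 6 genes that could be tested was called in IECs. Over all genes tested, 23.8% were above vehicle without overlap at day 3, 22.8% to 27.9% at days 5, 7 and 10, and 21.6% in the kinase-dead line. In IECs 12.2% were above and 14.6% below without overlap. In the kinase-dead line 6.05% were called higher, and in IECs 0.646% were called higher and 0.856% lower. A count of 0 called in IECs does not show that the genes did not differ.

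CDK8 and its paralog CDK19 are the alternative kinase subunits of the Mediator kinase module, which associates with the Mediator complex and modulates transcription by RNA polymerase II. The intestinal epithelium is renewed from crypt stem cells that give rise to absorptive enterocytes and to secretory Paneth, goblet, tuft and enteroendocrine cells. The 7 genes have unlike products. Chrna4 encodes the alpha-4 subunit of neuronal nicotinic acetylcholine receptors. Ms4a8a encodes a membrane-spanning protein of the Ms4a family. Mgat4c belongs to the N-acetylglucosaminyltransferase genes that branch N-glycans, and Plbd1 encodes a protein with a phospholipase B domain. Apol10a is a member of the apolipoprotein L family. Gsn encodes gelsolin, which severs and caps actin filaments. Spink1 encodes a secreted trypsin inhibitor.

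Organoids for the time course were VillinCreERT2; Cdk8 fl/fl; Cdk19 ko/ko, in which Cre under the Villin promoter acts in epithelial cells once 4-hydroxytamoxifen (4-OHT) is given. All libraries of this line, vehicle included, are therefore labelled as lacking CDK19. Organoids received 100 nM 4-OHT or 0.001% ethanol (EtOH) for 24 h and were collected at 3, 5, 7 or 10 days, and the same line was collected at 10 days in Wnt3-conditioned medium (Wnt3-CM). A kinase-dead line, VillinCreERT2; Cdk8 fl/fl; Cdk19 ko/D173A, whose remaining CDK19 protein carries a substitution that abolishes kinase activity, was treated with EtOH or 4-OHT and collected at 7 days. The names of its count columns give the treatment without a genotype, and they were assigned to it because no further line in the labels had EtOH libraries outside the time course. A further 5 lines, all given 4-OHT and collected at 7 days, were VillinCreERT2, C57BL/6, VillinCreERT2; Cdk8 fl/fl (CDK8 deleted), Cdk8 fl/fl; Cdk19 ko/ko (Cdk19-null, with no Cre) and VillinCreERT2; Cdk8 fl/fl; Cdk19 ko/ko (both lost). IECs came from tamoxifen-treated VillinCreERT2 mice and VillinCreERT2; Cdk8 fl/fl; Cdk19 ko/ko mice, 14 days after the last of 5 daily injections of 80 mg/kg. All groups were of the C57BL/6 strain and had 3 libraries. The labels do not say whether these were separate cultures or animals, so that p-values measure the spread between libraries, which may be technical. Each IEC library has a number of its own in its column name, which may stand for a separate mouse. Ages of the mice and the number of organoid clones are not given in the sources used here. The organoids labelled as lacking both kinases in the 5-line comparison have another number in their column names than those of the time course and Wnt3-CM, so they may be a different line of that genotype. In the 5-line comparison the libraries of each genotype share a number in their column names. Each genotype may thus be a single line, and genotype and line cannot be told apart there. In the time course, in Wnt3-CM and in the kinase-dead line, 4-OHT itself, Cre activity and the loss of CDK8 cannot be told apart.

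Library totals ran from 15485959 to 32909565 counts over 57 libraries in 19 groups. Levels are given as CPM, read counts scaled to a common library size within a fit, and are comparable between libraries of 1 fit. Levels of different genes are compared as RPKM, which is CPM divided by the exon length in kilobases. A gene is called where edgeR's quasi-likelihood test gives a Benjamini-Hochberg adjusted p under 0.05 over all genes tested and the fold change is over 1.5. The 9 epithelial markers summed to between 6890 and 13633 CPM in organoids and all were detected. Summed CPM of 14 immune markers stayed between 3.45 and 18.6 in organoids, and 10 mesenchyme markers stayed between 0.105 and 11.8 apart from 1 EtOH library at day 7 with 43.3. Whole-gene counts of Cdk8 did not fall in organoids labelled as CDK8 deleted (80.6 CPM against 75.6 in VillinCreERT2), and those of Cdk19 stood at 25.6 CPM in Cdk19-null against 31.0 CPM in C57BL/6 organoids and between 38.1 and 58.4 CPM (group means) in the time course. Which exons are deleted is not given in the sources used here, so that these counts do not check the genotypes, and the names of the knockouts follow the labels.

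The genes lie on 6 chromosomes of GRCm38. Chrna4 (ENSMUSG00000027577.14) spans chr2:181018380-181043546 on the minus strand and Gsn (ENSMUSG00000026879.14) spans chr2:35256380-35307892 on the plus strand. Apol10a (ENSMUSG00000050982.13) spans chr15:77477047-77491069 on the plus strand. Mgat4c (ENSMUSG00000019888.16) spans chr10:101681487-102391469 on the plus strand. Plbd1 (ENSMUSG00000030214.7) spans chr6:136612070-136661928 on the minus strand and Ms4a8a (ENSMUSG00000024730.7) spans chr19:11067471-11081102 on the minus strand. None of the 7 shares exonic bases with another annotated gene.

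RefSeq promoter windows (GRCm38.p6) were matched by symbol for 6 of the 7 genes, with 11 windows in all, since Gsn has 3 annotated starts and Mgat4c has 4. The 250 bases before the start are shown for Apol10a (chr15:77476797-77477046, plus strand) and Ms4a8a (chr19:11081104-11081353, minus strand), which followed each other closely over the time course, have 1 start each and overlap no annotated exon there. Capitals mark matches to the motifs searched on both strands, as listed after the sequences.
Apol10a: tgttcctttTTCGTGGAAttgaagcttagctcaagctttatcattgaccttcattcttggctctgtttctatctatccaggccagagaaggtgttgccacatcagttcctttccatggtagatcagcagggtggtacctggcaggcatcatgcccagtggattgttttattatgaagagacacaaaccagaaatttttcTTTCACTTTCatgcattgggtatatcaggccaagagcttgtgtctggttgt
Ms4a8a: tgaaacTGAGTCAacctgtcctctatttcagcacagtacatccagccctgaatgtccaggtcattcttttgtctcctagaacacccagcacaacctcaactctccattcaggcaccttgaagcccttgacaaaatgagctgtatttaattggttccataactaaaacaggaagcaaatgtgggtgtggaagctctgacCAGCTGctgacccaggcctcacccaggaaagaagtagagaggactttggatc
The Apol10a window holds a match to the interferon response element core at bases 51 to 42 before the start and a TTCNNNGAA match (STAT) at bases 241 to 233. That of Ms4a8a holds a TGANTCA match (AP-1) at bases 244 to 238 and a CAGNTG match (E-box) at bases 52 to 47. Of the 32851 RefSeq windows of the same length, 2.98% hold the interferon response element core, 7.02% hold TTCNNNGAA, 6.75% hold TGANTCA and 44.8% hold CAGNTG. Among the 11 windows of the 7 genes these motifs occurred in 1, 1, 1 and 8. The remaining motifs searched were CCCGCCC (SP and KLF), found in 4 of 11 windows and 23.4% of all, the TATA box (motif TATAAA), found in 1 of 11 and 12.4% of all, and CTTTGAA (TCF), found in 0 of 11 and 4.46% of all. No motif occurred in every gene's windows, and a match is a match of letters only.

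Without CDK8 deletion the genes differed widely in level. In EtOH organoids at day 7, Ms4a8a stood at 119 ± 0.733 RPKM (SD, n = 3) and Gsn at 37.3 ± 2.12 RPKM. Spink1 followed at 17.0 ± 1.01 RPKM and Plbd1 at 13.04 ± 0.927 RPKM. Mgat4c (2.49 ± 0.106 RPKM), Apol10a (1.85 ± 0.185 RPKM) and Chrna4 (0.397 ± 0.0415 RPKM) were low. After 4-OHT the order at day 7 began with Ms4a8a (265 ± 15.5 RPKM), Gsn (98.7 ± 7.30 RPKM), Spink1 (50.0 ± 2.94 RPKM) and Plbd1 (38.9 ± 4.83 RPKM). Apol10a (10.6 ± 0.493 RPKM) then stood above Mgat4c (6.16 ± 0.114 RPKM) and Chrna4 (5.81 ± 1.11 RPKM), the last pair overlapping in range.

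Chrna4 was the only one of the 7 above vehicle at day 3, and its 4-OHT level at day 10 was far under that at day 7. At day 3 its CPM was 0.810, 1.17 and 1.22 in the EtOH libraries and 13.9, 12.5 and 14.3 in the 4-OHT libraries. All 4-OHT libraries were thus above all EtOH libraries, by 3.66 ± 0.26 on the log2 scale (SE). The difference was 4.05 ± 0.23 at day 5 and 3.87 ± 0.22 at day 7, with 4-OHT levels of 28.7 ± 2.60 and 29.2 ± 5.56 CPM (SD, n = 3). At day 10 the counts dropped in both arms, to 2, 10 and 9 in EtOH and to 12, 26 and 31 in 4-OHT libraries. The groups still did not overlap, with a log2 difference of 1.77 ± 0.47, but the 4-OHT level of 1.20 ± 0.501 CPM was near that of EtOH organoids on day 3. As a background, 6.42% of the 15447 genes tested were called higher and 5.95% lower at day 3, and 8.58% were called higher and 4.62% lower at day 5. At day 7 the shares were 9.0% higher and 9.25% lower, and at day 10 they were 8.86% higher and 6.92% lower. In bulk libraries, fewer cells of a type and less RNA per cell cannot be told apart.

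**Figure D1:**
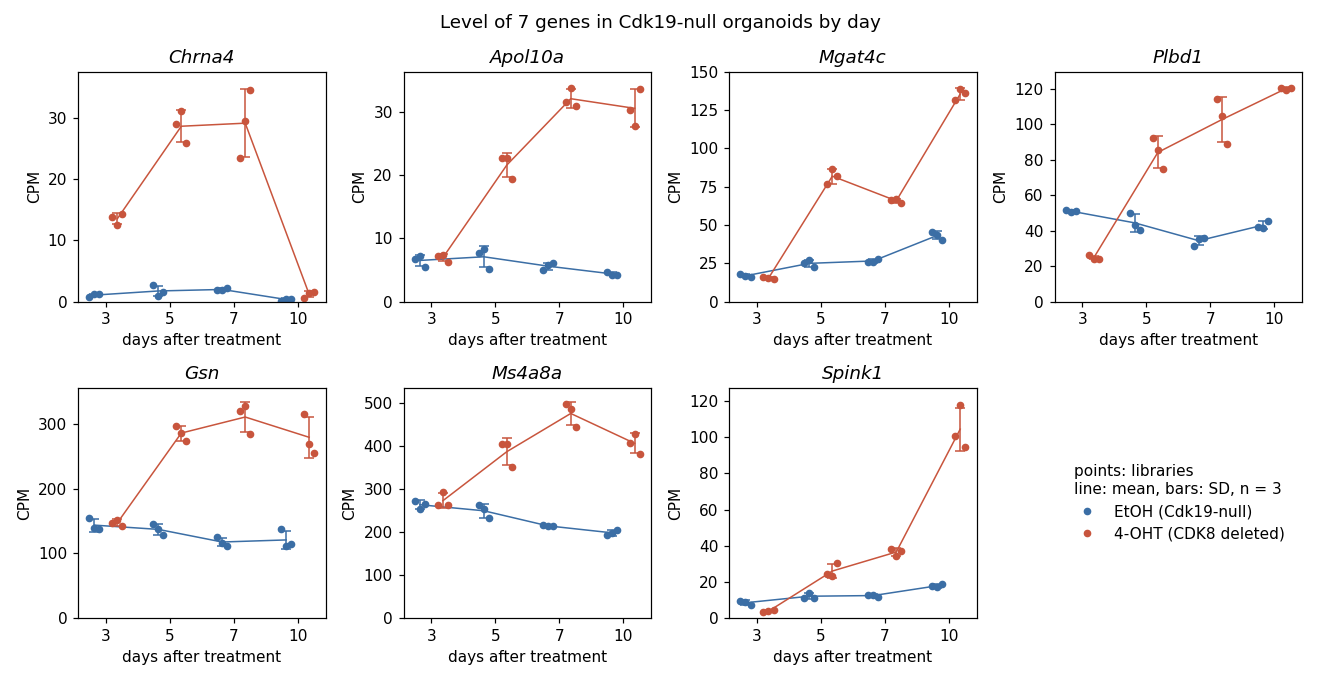
CPM of the 7 genes (vertical axes) by day after treatment (horizontal axes) in the Cdk19-null time course, with points for libraries, lines for means and bars for SD (n = 3). At day 3 only Chrna4 was above EtOH, while from day 5 all 7 genes were, and Chrna4 fell to 1.20 CPM at day 10.

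At day 3, 3 genes were below vehicle and 3 overlapped it, while 27.4% of all genes tested were below and 23.8% above without overlap. Plbd1 stood at 51.7, 50.5 and 50.8 CPM in EtOH libraries and at 26.1, 24.3 and 24.2 CPM in 4-OHT libraries, a log2 difference of -1.04 ± 0.09 (SE). Spink1 stood at 9.40, 8.77 and 6.97 CPM with EtOH and at 3.07, 3.77 and 4.11 CPM with 4-OHT, a log2 difference of -1.20 ± 0.15. In both genes the 4-OHT libraries lay well under the EtOH libraries. Mgat4c was slightly lower (15.2 ± 0.575 against 16.8 ± 0.932 CPM, SD, n = 3), with a log2 difference of -0.14 ± 0.08. Apol10a, Gsn and Ms4a8a had log2 differences of 0.09 ± 0.14, 0.04 ± 0.08 and 0.05 ± 0.07, and their groups overlapped. Beside these values, 10 of 13 enterocyte markers were called lower and 0 higher at day 3, with a summed level of 4245 to 4846 CPM in 4-OHT against 11388 to 12809 CPM in EtOH libraries and none at 0. The part of enterocyte content in the day 3 values was not tested.

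From day 5 onward the 4-OHT libraries were above the EtOH libraries for all 7 genes, as they were without overlap for 22.8%, 25.2% and 27.9% of all genes tested at days 5, 7 and 10. The membrane protein gene Ms4a8a, the most abundant of them, had log2 differences of 0.63 ± 0.07, 1.15 ± 0.07 and 1.04 ± 0.07 at days 5, 7 and 10. Its level went from 386 ± 30.7 to 475 ± 27.8 and 406 ± 23.3 CPM with 4-OHT, while in EtOH it went from 249 ± 15.7 to 214 ± 1.32 and 198 ± 6.62 CPM. Gsn also had its largest difference at day 7, with log2 differences of 1.06 ± 0.08, 1.40 ± 0.08 and 1.21 ± 0.08 and a 4-OHT level between 280 and 312 CPM. The 4-OHT libraries of Gsn overlapped between days 5, 7 and 10, while those of Ms4a8a at day 7 were above those of the other two days.

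Among the enzymes, Mgat4c had log2 differences of 1.71 ± 0.07 at day 5, 1.31 ± 0.07 at day 7 and 1.65 ± 0.07 at day 10. Its EtOH level was 16.8 ± 0.932 CPM at day 3 and 43.2 ± 2.60 CPM at day 10, so that the vehicle arm moved as well. Plbd1 turned from below vehicle at day 3 to log2 differences of 0.92 ± 0.09, 1.58 ± 0.09 and 1.48 ± 0.09. Its 4-OHT libraries reached 120, 119 and 121 CPM at day 10, against 41.9, 41.6 and 45.6 CPM in EtOH.

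Apol10a and Spink1 (ENSMUSG00000024503.2, matched without its version number, chr18:43728082-43737557, minus strand) kept widening. For Apol10a the log2 difference was 1.61 ± 0.13 at day 5, 2.51 ± 0.13 at day 7 and 2.80 ± 0.13 at day 10, and the last step came with a lower EtOH level (4.39 ± 0.228 CPM) rather than a higher 4-OHT level (30.5 ± 2.98 CPM against 32.0 ± 1.497 CPM at day 7). Spink1 went from 1.11 ± 0.12 to 1.56 ± 0.11 and 2.55 ± 0.11. Its 4-OHT libraries were at 101, 118 and 94.8 CPM at day 10 and at 38.2, 34.1 and 37.1 CPM at day 7. Enterocyte markers were not uniformly higher beside these rises. Their summed level was 14557 to 15153 CPM with 4-OHT and 15371 to 24587 CPM with EtOH at day 5, with 3 of 13 called higher and 3 lower. At day 7 the sums were 18875 to 23475 against 16725 to 21930 CPM, with 4 of 13 higher and 0 lower. At day 10 they were 20590 to 26521 against 15120 to 19270 CPM, with 6 of 13 higher and 0 lower. Paneth cell markers fell at these times, with 8 of 9 called lower at days 5, 7 and 10. Beside Spink1, a gene also known from pancreatic acinar cells, 10 acinar markers summed to 69.0 to 74.6 CPM with 4-OHT and 28.1 to 33.1 CPM with EtOH at day 10, with 7 of them at 0, and their part was not tested.

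In Wnt3-CM the genes split. Chrna4 had 1, 0 and 1 counts in EtOH libraries and 91, 130 and 152 counts in 4-OHT libraries. The ratio of its summed counts was 178, given as a description since this line chose the genes. Apol10a was at 8.31, 6.77 and 6.37 CPM with EtOH and at 58.4, 63.5 and 62.9 CPM with 4-OHT, a log2 difference of 3.11 ± 0.10. Spink1 was at 1.58, 1.99 and 4.11 CPM with EtOH and at 37.8, 32.6 and 33.4 CPM with 4-OHT, a log2 difference of 3.75 ± 0.24. These 3 genes were far above vehicle. Plbd1 (log2 difference 1.92 ± 0.08) and Mgat4c (1.48 ± 0.07) were also above it in all libraries, as were 28.2% of all genes tested. Gsn and Ms4a8a were not: Gsn stood at 363 ± 13.5 CPM with EtOH and 356 ± 31.0 CPM with 4-OHT, and Ms4a8a at 381 ± 23.7 and 401 ± 7.06 CPM. Their groups overlapped, with log2 differences of -0.03 ± 0.07 and 0.07 ± 0.07. At day 10 of the time course, in another table without Wnt3-CM and scaled separately, the EtOH levels were 121 ± 14.1 CPM for Gsn and 198 ± 6.62 CPM for Ms4a8a. In Wnt3-CM, enterocyte markers summed to 17845 to 21888 CPM with 4-OHT and 15163 to 20860 CPM with EtOH, with 8 of 13 called higher. Acinar markers summed to 31.7 to 36.2 against 15.8 to 18.4 CPM. All 8 tested Paneth cell markers were called lower, with sums of 1921 to 2362 against 6980 to 7740 CPM, as were 7 of 7 tuft and 5 of 8 goblet cell markers. The part of these cell types was not tested. Of 13745 genes tested in Wnt3-CM, 9.45% were called higher and 7.42% lower.

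The kinase-dead line, on which the stated choice of the genes does not rest, asked whether the rises occur when CDK8 is deleted and CDK19 protein remains without kinase activity. Of the 7 genes, 4 were called higher and 0 lower, against 6.05% of 15457 genes called higher and 6.25% lower. Apol10a stood at 5.59, 6.67 and 8.10 CPM with EtOH and at 16.9, 26.8 and 23.0 CPM with 4-OHT. The groups did not overlap and the log2 difference was 1.71 ± 0.19 (adjusted p = 0.000286). Mgat4c stood at 22.8, 24.6 and 25.1 CPM with EtOH and at 43.5, 56.2 and 51.8 CPM with 4-OHT, rising by 1.06 ± 0.10 on the log2 scale (adjusted p = 4.44e-05). Spink1 was at 45.2, 44.9 and 45.5 CPM in EtOH and at 61.3, 77.3 and 87.0 CPM in 4-OHT libraries, a rise of 0.73 ± 0.11 (adjusted p = 0.00128). All 4-OHT libraries were above all EtOH libraries for these 3 genes, as for 21.6% of all genes tested, and each of the 3 stayed called without any 1 library.

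Among the called genes, Chrna4 had the highest adjusted p. Its counts were 11, 34 and 27 with EtOH and 43, 215 and 114 with 4-OHT, so that the 4-OHT libraries spread widely. The log2 difference was 2.43 ± 0.65 (adjusted p = 0.0383). The call was kept in 1 of the 6 settings that left out a library, where the adjusted p ranged from 0.000305 to 0.140 and the log2 difference from 1.94 to 2.84. The call was lost without any 1 of the 3 EtOH libraries (adjusted p = 0.0859, 0.0906 and 0.140) and without the second or the third 4-OHT library (adjusted p = 0.0622 and 0.102), and also without the filter on low counts (adjusted p = 0.0731).

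Gsn, Plbd1 and Ms4a8a were not called in the kinase-dead line. For Gsn the libraries were at 116, 108 and 112 CPM with EtOH and at 145, 119 and 123 CPM with 4-OHT, without overlap, and the log2 difference was 0.21 ± 0.08 (adjusted p = 0.0838). Plbd1 was at 47.9, 63.8 and 62.2 CPM with EtOH and at 55.7, 90.0 and 85.3 CPM with 4-OHT. These groups overlapped (log2 difference 0.41 ± 0.21, adjusted p = 0.208), and without the first 4-OHT library Plbd1 was called, at 0.60 (adjusted p = 0.00528). Ms4a8a was at 200, 241 and 246 CPM with EtOH and at 139, 209 and 198 CPM with 4-OHT, a log2 difference of -0.33 ± 0.16 (adjusted p = 0.175) with overlapping groups. Beside these results, 7 of 13 enterocyte markers were called higher, with sums of 48005 to 49832 CPM against 34345 to 41365 CPM with EtOH. In the other direction, 7 of 8 tested Paneth cell markers were called lower and 1 higher, with sums of 1811 to 2154 CPM against 3563 to 3805 CPM, and 5 of 6 stem cell markers were called lower, with sums of 431 to 480 CPM against 791 to 901 CPM. The part of these cell types in the values was not tested. The sum of 10 pancreatic acinar markers was 145 to 169 CPM with 4-OHT against 35.4 to 41.4 CPM with EtOH. That sum was mostly Ctrb1 (152 CPM with 4-OHT), and 6 of the 10 were at 0 in both groups. What part these markers have in the values of Spink1, a trypsin inhibitor of pancreas, was not tested.

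**Figure D2:**
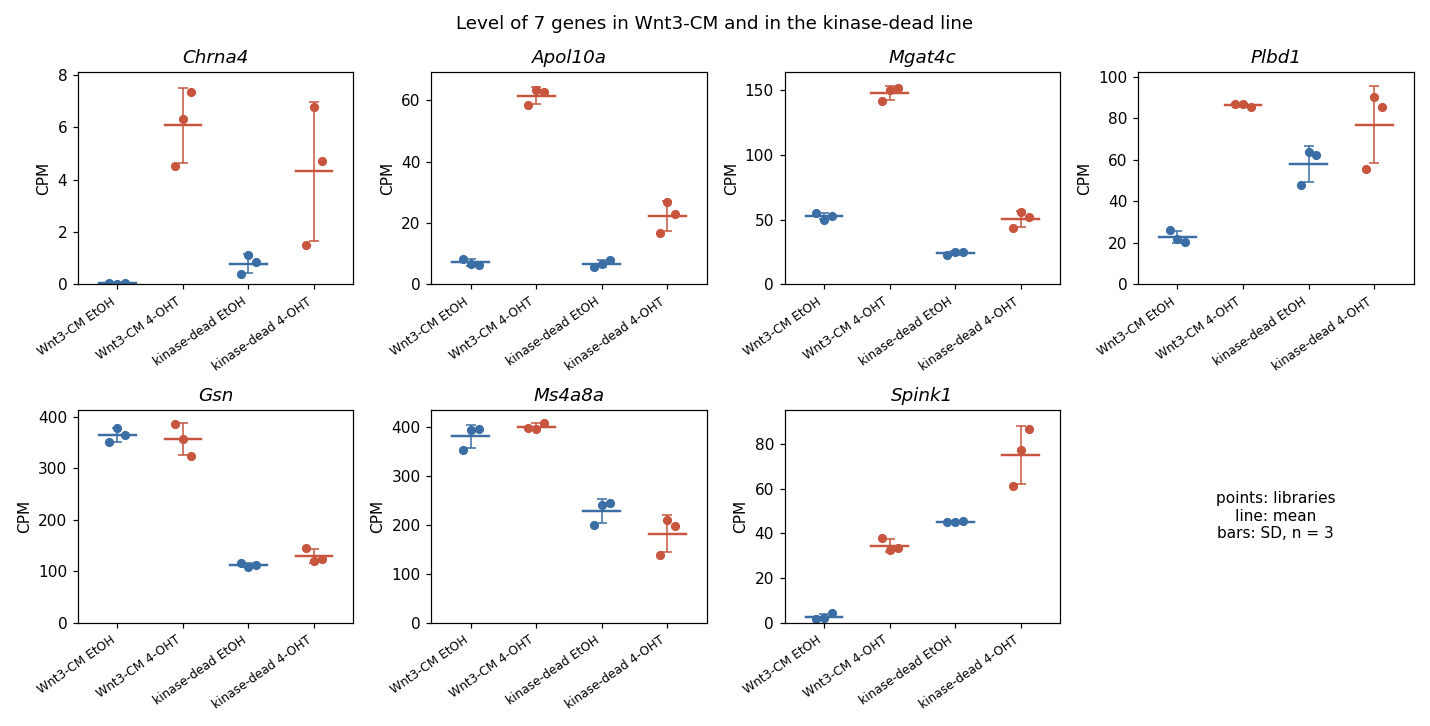
CPM of the 7 genes (vertical axes) in EtOH (blue) and 4-OHT (red) libraries of the Cdk19-null line in Wnt3-CM and of the kinase-dead line, each pair scaled in its own fit, with points for libraries, lines for means and bars for SD (n = 3). In Wnt3-CM, Gsn and Ms4a8a overlapped, and in the kinase-dead line Plbd1 and Ms4a8a did.

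Loss of CDK8 alone was tested in CDK8-deleted against VillinCreERT2 organoids, both given 4-OHT. Genotype and line cannot be told apart in this comparison or in that of CDK19 loss. Of the 7 genes, 1 was called higher and 2 lower, against 2.90% of 15125 genes called higher and 4.34% lower. Chrna4 had 1, 1 and 5 counts in VillinCreERT2 and 76, 74 and 88 counts in CDK8-deleted libraries, a log2 difference of 4.93 ± 0.32 (adjusted p = 1.83e-11). The ratio of its summed counts was 33.6, with a 95% exact interval of 16.1 to 84.5 for counting error only. Mgat4c went the other way, at 77.6, 103 and 48.2 CPM in VillinCreERT2 and 28.4, 28.7 and 31.9 CPM in CDK8-deleted libraries. It fell by 1.36 on the log2 scale (SE 0.22, adjusted p = 0.000841), and its VillinCreERT2 libraries were spread widely. Gsn fell by 0.67 (SE 0.07, adjusted p = 9.52e-08), from 81.4, 93.7 and 85.0 CPM to 58.3, 53.3 and 52.1 CPM. Ms4a8a (-0.48 ± 0.12, adjusted p = 0.00812) and Spink1 (-0.54 ± 0.10, adjusted p = 0.000676) had lower levels without reaching the fold cutoff. Without the third CDK8-deleted library both were called lower, at -0.60 and -0.62, and Spink1 also without the first VillinCreERT2 library (-0.60). Plbd1 (0.13 ± 0.08, adjusted p = 0.248) and Apol10a (-0.16 ± 0.19, adjusted p = 0.562) overlapped between the lines. Enterocyte markers summed to 21740 to 23689 CPM in CDK8-deleted and 32040 to 38699 CPM in VillinCreERT2 libraries, with 5 of 13 called lower, and their part in these differences was not tested.

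Loss of CDK19 alone was tested in Cdk19-null organoids, which carry no Cre, against C57BL/6 organoids. Mgat4c was called higher and Chrna4 lower, against 2.86% of genes called higher and 2.39% lower. Mgat4c stood at 17.8, 19.4 and 15.7 CPM in C57BL/6 and at 45.6, 54.4 and 47.7 CPM in Cdk19-null libraries, a log2 difference of 1.48 ± 0.25 (adjusted p = 0.00196). Chrna4 stood at 2.92, 2.67 and 2.68 CPM in C57BL/6 and at 1.74, 1.28 and 1.34 CPM in Cdk19-null libraries, and fell by 0.92 (SE 0.22, adjusted p = 0.00391). The Apol10a groups did not overlap, with a log2 difference of 0.51 ± 0.17 that was not called (adjusted p = 0.0580). Those of Gsn did not overlap either, at 63.3 to 71.5 CPM in Cdk19-null against 57.8 to 63.0 CPM in C57BL/6 libraries. Over all genes tested, 15.1% were above and 15.7% below without overlap. Gsn (0.16 ± 0.07, adjusted p = 0.150), Ms4a8a (0.10 ± 0.12, adjusted p = 0.641), Plbd1 (0.05 ± 0.08, adjusted p = 0.746) and Spink1 (-0.18 ± 0.11, adjusted p = 0.283) were not called. Stem cell markers summed to 782 to 928 CPM in Cdk19-null against 1260 to 1320 CPM in C57BL/6 libraries, with 2 of 6 called lower. Paneth cell markers summed to 4233 to 4637 against 5340 to 6663 CPM, with 2 of 8 lower. Of 13 enterocyte markers 0 were called. The part of these cell types was not tested.

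The control lines themselves differed in these genes. C57BL/6 against VillinCreERT2 organoids gave 15.5% of genes called higher and 10.9% lower, and Chrna4 (4.53 ± 0.36, adjusted p = 4.98e-11) and Mgat4c (-2.11 ± 0.24, adjusted p = 1.5e-05) were among them. Gsn was lower in C57BL/6 by less than the fold cutoff (-0.54 ± 0.07, adjusted p = 4.48e-07), and was called without the first VillinCreERT2 library (-0.59). Plbd1 was higher by 0.30 ± 0.08 (adjusted p = 0.00308) and Apol10a by 0.46 ± 0.18 (adjusted p = 0.0416), both under the cutoff. Ms4a8a (0.24 ± 0.12, adjusted p = 0.101) and Spink1 (-0.14 ± 0.10, adjusted p = 0.255) overlapped. Cell type markers differed between these lines too. Paneth cell markers summed to 5340 to 6663 CPM in C57BL/6 and 2896 to 3021 CPM in VillinCreERT2, with 5 of 8 called higher, and enteroendocrine markers to 698 to 760 CPM against 398 to 426 CPM, with 6 of 9 higher and 3 lower. Of the enterocyte markers 4 of 13 were called lower, and the part of these cell types was not tested. The choice of control line set the direction of the Chrna4 difference after CDK19 loss: against the mean of the log2 levels of both controls it was 1.34 ± 0.29 (adjusted p = 0.00140). That mean takes in VillinCreERT2, at 0.115 CPM and 1 to 5 counts a library. In CPM, Cdk19-null organoids (1.45) lay between VillinCreERT2 and C57BL/6 (2.76). With that mean, the Mgat4c differences were -0.30 for CDK8 loss (adjusted p = 0.276) and 0.43 for CDK19 loss (adjusted p = 0.151), and neither was called. Gsn after CDK8 loss (-0.40, adjusted p = 2.50e-05) came under the fold cutoff, Ms4a8a after CDK8 loss (-0.60, adjusted p = 0.000654) was called lower, and Apol10a after CDK19 loss (0.74, adjusted p = 0.00213) was called higher.

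The response to CDK8 loss minus the response to CDK19 loss was tested within the same fit. Of the 7 genes, 1 had a higher and 2 a lower difference that was called, against 5.99% of genes higher and 6.45% lower. The difference was 5.85 ± 0.41 for Chrna4 (adjusted p = 4.33e-11), -2.84 ± 0.33 for Mgat4c (adjusted p = 7.85e-05) and -0.83 ± 0.10 for Gsn (adjusted p = 8.32e-07). Ms4a8a (-0.58 ± 0.17, adjusted p = 0.0179) was under the fold cutoff and was called in 7 of the 12 settings that left out a library. Apol10a (-0.67 ± 0.26, adjusted p = 0.0554) was called in 2 of them. The third VillinCreERT2 library held 5 of the 7 Chrna4 counts of its group, and without it the Chrna4 differences were 6.07 for CDK8 loss, 5.66 between control lines and 6.99 for the difference of the single knockouts. Since each single knockout has its own control line, the difference between the control lines enters these values.

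**Figure D3:**
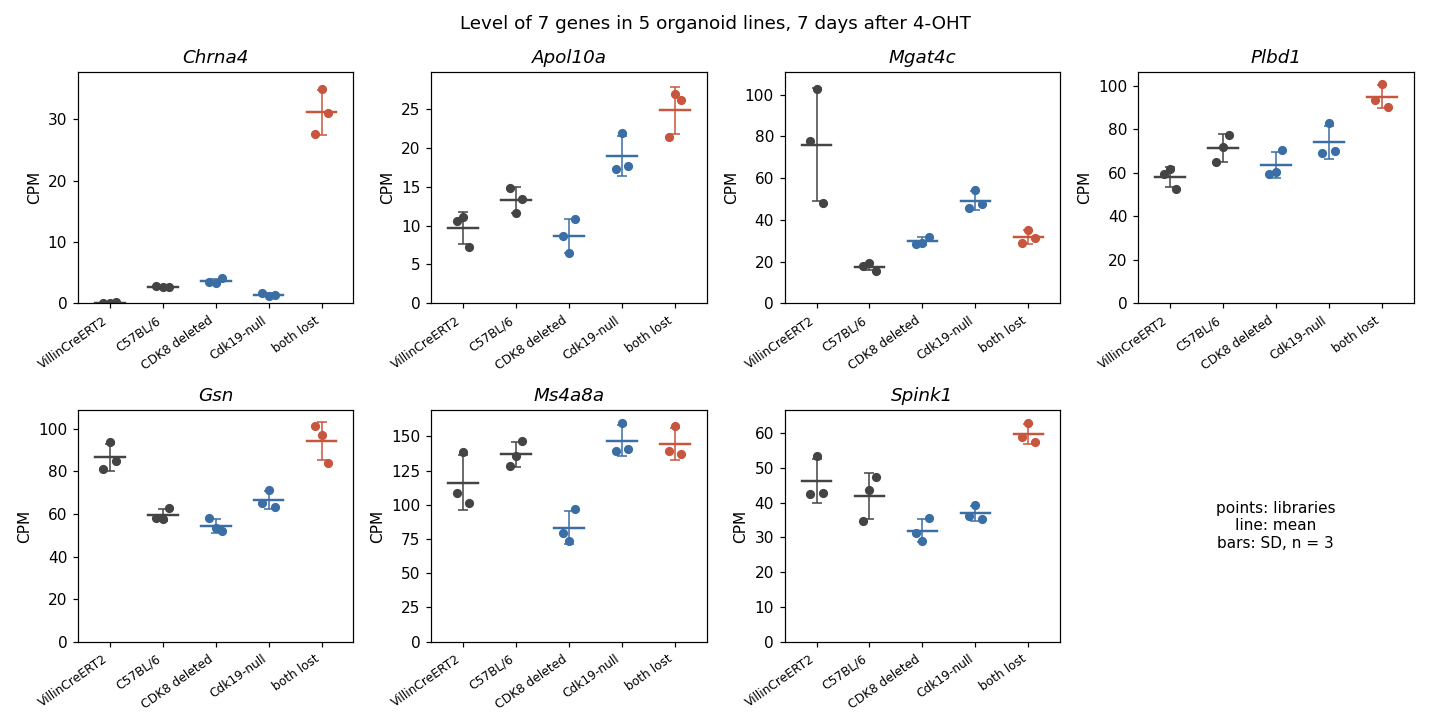
CPM of the 7 genes (vertical axes) in the 5 organoid lines 7 days after 4-OHT (horizontal axes: controls black, single knockouts blue, both lost red), with points for libraries, lines for means and bars for SD (n = 3). Mean Chrna4 was 31.2 CPM with both kinases lost and at or below 3.64 CPM elsewhere, while Mgat4c was highest in VillinCreERT2.

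Organoids lacking both kinases were set beside their controls as a description, since this genotype chose the genes. Chrna4 was at 27.6, 34.9 and 31.0 CPM in them. Its order over the lines was VillinCreERT2 (0.115 ± 0.117 CPM), Cdk19-null (1.45 ± 0.248), C57BL/6 (2.76 ± 0.142), CDK8 deleted (3.64 ± 0.390) and both lost (31.2 ± 3.65), and no neighbours overlapped. Apol10a was lowest in CDK8-deleted (8.65 ± 2.18 CPM) and VillinCreERT2 (9.66 ± 2.06) organoids, which overlapped, then at 13.3 ± 1.63 in C57BL/6, 18.9 ± 2.53 in Cdk19-null and 24.8 ± 3.00 with both lost, the last pair overlapping. Plbd1 ran from VillinCreERT2 (58.0 ± 4.73 CPM) through CDK8 deleted (63.5 ± 5.99), C57BL/6 (71.4 ± 6.21) and Cdk19-null (73.9 ± 7.62) to both lost (94.9 ± 5.35), and only the last stood apart from its neighbour. Spink1 was highest with both lost (59.7 ± 2.88 CPM), followed by VillinCreERT2 (46.2 ± 6.29), C57BL/6 (41.9 ± 6.57), Cdk19-null (36.9 ± 2.19) and CDK8 deleted (31.9 ± 3.37), and all neighbours after the first overlapped.

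Gsn, Ms4a8a and Mgat4c overlapped or lay under another line in the organoids lacking both kinases. Gsn was at 94.2 ± 8.91 CPM in them and at 86.7 ± 6.30 in VillinCreERT2, which overlapped, and at 66.7 ± 4.32 or less elsewhere. Ms4a8a was at 147 ± 11.3 CPM in Cdk19-null, 145 ± 11.5 with both lost, 137 ± 9.25 in C57BL/6, 116 ± 19.9 in VillinCreERT2 and 83.4 ± 12.2 in CDK8-deleted organoids, with overlap between all neighbours but the last. Mgat4c was highest in VillinCreERT2 (76.1 ± 27.2 CPM), then at 49.2 ± 4.62 in Cdk19-null, 31.8 ± 3.20 with both lost, 29.7 ± 1.94 in CDK8-deleted and 17.6 ± 1.86 in C57BL/6 organoids, with overlap in the first pair and between both lost and CDK8 deleted. Thus against Cdk19-null organoids Mgat4c was lower with both lost (-0.63 ± 0.23, log2), the opposite direction to the time course at day 7 (1.31 ± 0.07), which compared EtOH and 4-OHT within organoids that bear another number. Against Cdk19-null organoids the log2 differences were 4.42 ± 0.15 for Chrna4, 0.69 ± 0.10 for Spink1, 0.50 ± 0.07 for Gsn, 0.39 ± 0.16 for Apol10a, 0.36 ± 0.08 for Plbd1 and -0.02 ± 0.12 for Ms4a8a. Against VillinCreERT2 they were 8.02 ± 0.22 for Chrna4 (9.16 without the third VillinCreERT2 library), 1.36 ± 0.17 for Apol10a, 0.71 ± 0.08 for Plbd1, 0.37 ± 0.10 for Spink1, 0.31 ± 0.12 for Ms4a8a, 0.12 ± 0.07 for Gsn and -1.26 ± 0.22 for Mgat4c. In the first comparison 4 of the 7 were above without overlap and 1 below. Of all genes tested, 24.0% were above and 24.0% below without overlap, and 6.33% were called higher and 4.26% lower. The second gave the same counts, 4 above and 1 below, where 29.4% of all genes were above and 30.5% below without overlap, and 11.5% were called higher and 7.95% lower. These comparisons share the libraries lacking both kinases. Against Cdk19-null organoids, 8 of 8 tested Paneth and 7 of 7 tuft cell markers were called lower, while 6 of 13 enterocyte markers were higher and 1 lower. Paneth cell markers summed to 895 to 935 CPM with both lost, 4233 to 4637 CPM in Cdk19-null and 2896 to 3021 CPM in VillinCreERT2 organoids. The part of these cell types was not tested.

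**Figure D4:**
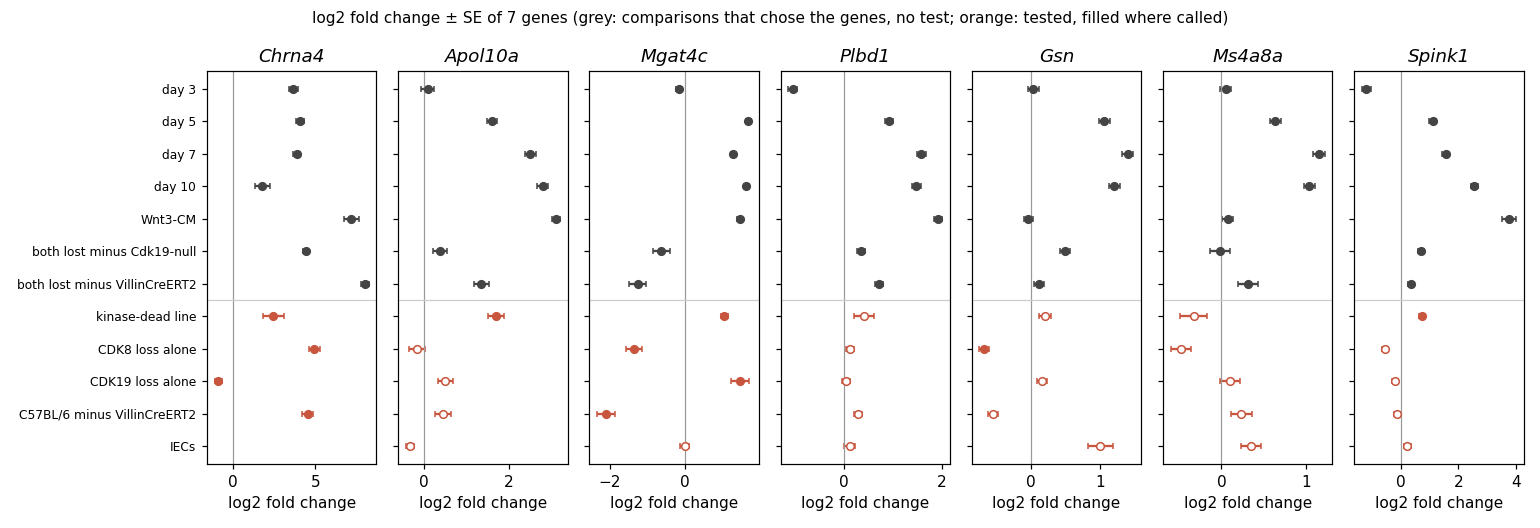
Log2 fold changes with SE (horizontal axes, a range of its own for each gene) of the 7 genes in 12 comparisons (vertical axis), grey for the comparisons that chose the genes and orange for the tested ones, filled where called. No gene was above 0 in all comparisons, and Chrna4 was not past the filter in IECs.

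In IECs, 0 of the 6 genes tested were called, against 0.646% of 15182 genes called higher and 0.856% lower. At an unadjusted p under 0.05, 3017 of all genes differed, and DESeq2 called 1 of the 6, Gsn. The IEC levels show that most of the genes are expressed in the tissue: Apol10a was at 223 ± 2.02 CPM, Spink1 at 194 ± 12.4 CPM, Ms4a8a at 251 ± 17.8 CPM and Plbd1 at 147 ± 3.11 CPM in VillinCreERT2 mice (SD, n = 3). Chrna4 was the exception, with 0, 0 and 0 counts in VillinCreERT2 and 3, 1 and 3 counts in IECs lacking both kinases, at or under 3 counts in every library, so no fold is given.

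Gsn was the member that came nearest to a call in IECs. It stood at 84.4, 96.6 and 81.2 CPM in VillinCreERT2 and at 221, 138 and 167 CPM in IECs lacking both kinases, without overlap, a log2 difference of 1.01 ± 0.18 (adjusted p = 0.0511). DESeq2 gave an adjusted p of 1.18e-05. Leaving out the second VillinCreERT2 library gave 1.09 (adjusted p = 0.0201), and leaving out the second library lacking both kinases gave 1.15 (adjusted p = 0.0271), both called. Over all 6 such settings the adjusted p ranged from 0.0201 to 0.235. Cells other than epithelium differed in these libraries. The 10 mesenchyme markers summed to 13.1, 898 and 56.4 CPM in VillinCreERT2 and to 989, 612 and 468 CPM in IECs lacking both kinases, and the 14 immune markers to 79.5, 747 and 114 CPM against 1786, 942 and 916 CPM. None of these markers was at 0 in a whole group, and 0 of 24 were called. Among epithelial lineages, 5 of 9 Paneth cell markers were called lower, with sums of 1383 to 2450 against 4530 to 6752 CPM in VillinCreERT2. So were 3 of 8 goblet, 2 of 8 tuft and 2 of 6 stem cell markers, while 0 of 13 enterocyte markers were called. The part of all these cells in the Gsn difference was not tested.

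Without overlap, 12.2% of all genes tested were above and 14.6% below VillinCreERT2 in IECs lacking both kinases. Ms4a8a was at 271, 239 and 242 CPM in VillinCreERT2 and at 328, 275 and 354 CPM in IECs lacking both kinases. The groups did not overlap and the log2 difference of 0.35 ± 0.12 was not called (adjusted p = 0.188). Apol10a was lower, at 223, 221 and 225 CPM against 170, 169 and 199 CPM, again without overlap and not called (-0.31 ± 0.10, adjusted p = 0.162). Spink1 (0.23 ± 0.13, adjusted p = 0.374), Plbd1 (0.13 ± 0.11, adjusted p = 0.557) and Mgat4c (-0.0017 ± 0.13, adjusted p = 0.996) overlapped. Pancreatic acinar markers, which bear on Spink1, summed to 4.28 to 12.9 CPM in VillinCreERT2 and 16.2 to 98.0 CPM in IECs lacking both kinases, and their part in the Spink1 values was not tested.

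**Figure D5:**
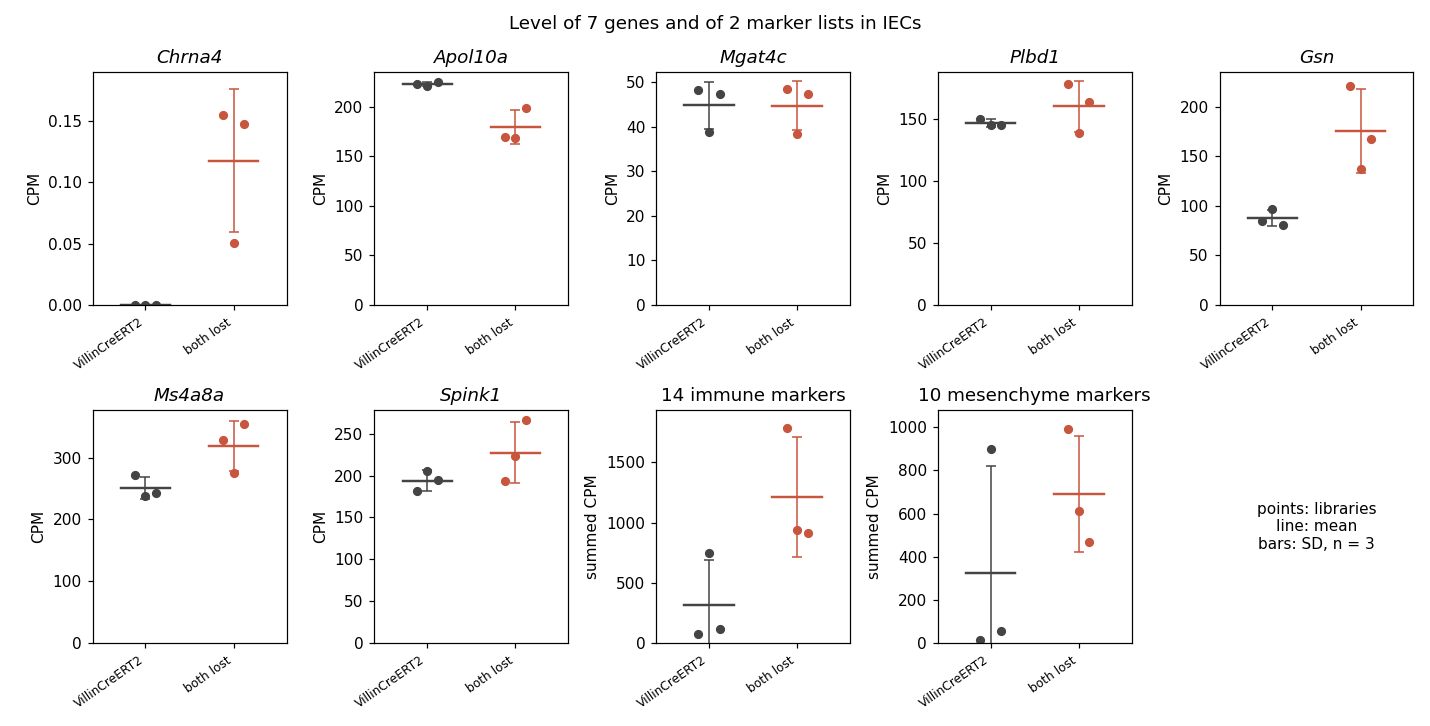
CPM of the 7 genes and summed CPM of 14 immune and 10 mesenchyme markers (vertical axes) in IECs of VillinCreERT2 mice and mice lacking both kinases, with points for libraries, lines for means and bars for SD (n = 3, drawn from 0 up). Gsn and Ms4a8a libraries lacking both kinases lay above the VillinCreERT2 libraries and those of Apol10a below, as for 12.2% and 14.6% of all genes tested, and none was called.

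Relatives of the 7 genes were described from lists of their families. In the Apol family, 4 of 12 other members were tested in the time course. Apol7a was higher at all 4 days (log2 differences 1.74 at day 3 and 2.44 at day 7), in Wnt3-CM (1.70 ± 0.14) and in the kinase-dead line (1.97 ± 0.26, adjusted p = 0.00215), where 1 of 2 tested members was called. Apol9a was higher at all 4 days (2.29 to 2.99) and Apol9b at days 5, 7 and 10 (1.83 to 3.32), both from levels under 1 CPM in EtOH, and neither was called in Wnt3-CM (-0.33 ± 0.10 and -0.37 ± 0.12). These are similar gene copies, and how reads that match several of them were counted is not given in the sources used here, so Apol10a is uncertain in this respect too. In IECs 0 of 7 tested members were called.

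In the Ms4a family, 6 of 18 other members were tested in the time course, and 0, 1, 3 and 4 were called higher at days 3, 5, 7 and 10. Ms4a18 (1.22 at day 7, 1.31 at day 10), Ms4a10 (0.92 and 1.41) and Ms4a12 (0.88 and 0.66) were higher on both days, and Ms4a15 was higher at days 5 and 10 (0.94 and 1.26). Ms4a10 was the 1 member called lower at day 3 (-0.83 ± 0.11). In Wnt3-CM, where Ms4a8a did not differ beyond its spread, Ms4a15 (2.11 ± 0.20) and Ms4a18 (0.63 ± 0.07) were called higher. In the kinase-dead line 0 of 5 were called.

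Of the 7 other genes of the gelsolin family, Scin (scinderin) followed a course like that of Plbd1, lower at day 3 (-0.92 ± 0.14) and higher at days 7 and 10 (0.84 ± 0.12 and 1.28 ± 0.12). It was also higher in Wnt3-CM (0.76 ± 0.13) and in the kinase-dead line (1.20 ± 0.11, adjusted p = 9.59e-05). Capg, a capping protein, was higher at days 3, 5 and 7 (1.73, 1.91 and 1.04) and in the kinase-dead line (0.93 ± 0.09), but lower in Wnt3-CM (-0.67 ± 0.09). Avil (advillin), also expressed by tuft cells, was lower at days 5, 7 and 10, in Wnt3-CM (-3.40 ± 0.27) and in the kinase-dead line (-1.28 ± 0.20), while all 8 tested tuft cell markers were called lower in that line. After CDK8 loss alone Scin (-0.95 ± 0.09) and Capg (-0.67 ± 0.09) were lower, as Gsn was, and after CDK19 loss alone Capg was higher (0.90 ± 0.13).

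Spink4, a goblet cell gene and the only other tested member of 11 in the Spink family, was called lower at days 5 and 10 (-0.88 ± 0.16 and -1.03 ± 0.16), in Wnt3-CM (-1.20 ± 0.13), in the kinase-dead line (-0.93 ± 0.16, adjusted p = 0.00497) and in IECs (-1.24 ± 0.18, adjusted p = 0.0361). After CDK8 loss alone (-0.43 ± 0.08), after CDK19 loss alone (-0.12 ± 0.08) and between control lines (-0.51 ± 0.08) it was not called and its differences had the same sign as those of Spink1. Among 15 other nicotinic receptor subunit genes, 4 were tested in the time course. Chrnb4 was higher at days 3 and 7 (1.22 ± 0.42 and 1.06 ± 0.43) and lower at day 10 (-1.43 ± 0.58), at or under 1.30 CPM throughout. Chrnb1, a subunit of the muscle receptor, was higher at day 3 (0.74 ± 0.18) and lower in Wnt3-CM (-0.66 ± 0.13) and in the kinase-dead line (-0.90 ± 0.22, adjusted p = 0.0123). Of the 6 other N-glycan branching genes tested, 2 were called lower at day 3 and 0 were called at any later day, in Wnt3-CM, in the kinase-dead line or in IECs. Plbd2, the other phospholipase B domain gene, was called in none of the comparisons.

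Over the 24 libraries of the time course, the log2 levels of the 7 genes gave Pearson's r from -0.04 to 0.97 for the 21 pairs, with a median of 0.78. These libraries share days, treatment and the line, and r is given as a description. Apol10a, Gsn and Ms4a8a went together most closely (0.96 to 0.97 between them), and Mgat4c followed Spink1 (0.95). Chrna4 was the least like the rest, at -0.04 with Spink1 and at most 0.65, with Ms4a8a. The gene nearest in pattern to the mean of the 7 was Cyp4b1, a cytochrome P450 (r = 0.98), followed by Lypd8, Cyp4v3, Apobec1 and Mep1a (all 0.97). Mep1a, a meprin protease of the brush border, was the nearest gene to Apol10a (0.97, then H2-T3 and Cyp4v3), to Gsn (0.97, then Parp14 and Cyp4b1) and to Ms4a8a (0.98, then Aldh1l1 and H2-T3). Slc10a2, the ileal bile acid transporter, was nearest to Chrna4 (0.98), followed by Mknk2 (0.95) and Oasl1 (0.94). For Mgat4c the nearest were Neurl3 (0.97), Rab9 and Agmo. Plbd1 was most like Casp1 (0.98), an inflammatory caspase, Slc22a18 and Slc7a9. Spink1 was most like Acer3 (0.98), a ceramidase, Gpat3 and Lrrc19.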

How the data were processed

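Poly-A RNA of mouse small intestinal organoids and IECs was sequenced by the authors with 100 bp paired-end reads. The submitters' processing notes name STAR 2.5.2, featureCounts, Subread 1.6.3 and mm10, without options or strand. The authors deposited read counts per gene as whole numbers, without normalization, in 4 tables. Of 63 labelled libraries, 57 had columns that matched a label or a group. Another 6 IEC columns were not used because their names match no single label.

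Counts were filtered with filterByExpr, scaled with TMM and tested with edgeR 4.0.16 (limma 3.58.1, R 4.3.3) using robust quasi-likelihood F tests, and DESeq2 1.42.0 was an alternative. The 5 lines were fitted together, as were the 8 time course groups, while Wnt3-CM, kinase-dead and IEC libraries were fitted as pairs. As in the study, a gene was called at an adjusted p below 0.05 with a change beyond 1.5 times. SE was obtained by dividing the absolute log2 difference by the square root of F. RPKM used the exon union of GENCODE vM21 genes, in which 53861 of 54752 identifiers occur. All 7 genes were named, family genes where called in the kinase-dead line or at 2 or more days, and the 3 genes with the highest correlation to each member and 5 to their mean profile, among genes of at least 1 CPM. The genes, lists and tests were chosen with earlier results of these data known. The tests were checked on simulated data. Intervals and the floor of 3 counts cover counting error only.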

Additional observations from a re-analysis of the deposited data

Results flagged for a closer look

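The responses to the 2 single knockouts differed by a test of the difference itself in 3 genes. CDK8 loss minus CDK19 loss was 5.85 on the log2 scale for Chrna4 (adjusted p = 4.33e-11), -2.84 for Mgat4c (adjusted p = 7.85e-05) and -0.83 for Gsn (adjusted p = 8.32e-07). Chrna4 was higher after CDK8 loss in 3 of 3 libraries and lower after CDK19 loss in 3 of 3, and Mgat4c went the opposite way in both. The control lines differed by 4.53 in Chrna4 and -2.11 in Mgat4c. Against the mean of the log2 levels of both control lines, Chrna4 was higher after either loss, by 2.66 for CDK8 (adjusted p = 5.30e-10) and 1.34 for CDK19 (adjusted p = 0.00140). For Chrna4 that mean takes in VillinCreERT2 at 0.115 CPM. In CPM, Cdk19-null organoids (1.45) lay between VillinCreERT2 and C57BL/6 (2.76). Mgat4c gave -0.30 for CDK8 (adjusted p = 0.276) and 0.43 for CDK19 (adjusted p = 0.151), neither of them called. The opposite directions of Chrna4 thus rested on the control line of each knockout.

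Apol10a was called higher in the kinase-dead organoids, while in IECs its difference had the other sign and was not called. All 3 4-OHT libraries of the kinase-dead line were above vehicle, while all 3 IEC libraries lacking both kinases were below VillinCreERT2, by -0.31 on the log2 scale (adjusted p = 0.162), as 14.6% of all genes tested in IECs were without overlap. The difference between these 2 responses was not tested.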

How the results depend on the processing

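With 3 libraries a group, IECs were the least settled comparison. Of the genes described, 1 was called there without the filter on low counts or with DESeq2 (Gsn), and 0 to 1 when a library was left out. Over all genes, 228 were called in IECs, 1103 without the filter, 859 with DESeq2, 8 with a replicate block and 3 to 1566 with a library left out. For CDK8 loss alone, 3 to 5 of the 7 were called with a library left out. The difference between single knockouts, whose alternatives were chosen after seeing the data, gave 5 without the filter and with DESeq2, and 3 to 5 with a library left out. In the main fit of that difference, 5.99% of all genes were called higher and 6.45% lower. Against the mean of the log2 levels of both control lines, Plbd1 after CDK8 loss (-0.020), Chrna4 after CDK19 loss (1.34) and Gsn after CDK19 loss (-0.11) changed sign. With a library left out, Apol10a after CDK8 loss ranged from -0.35 to 0.0089, Plbd1 after CDK19 loss from -0.030 to 0.12 and Mgat4c in IECs from -0.082 to 0.092, and Mgat4c was 0.057 under upper quartile scaling and 0.00020 with DESeq2. The cause was not tested. Deviations of same-numbered libraries did not correlate throughout (r = -0.41 to 0.23, and -0.41 in 1 IEC pair), so the main fits used no pairing. At day 7 r was 0.0018 to 0.16 and at day 10 it was 0.044 to 0.23. With 3 libraries a group such values cannot exclude pairing. With the replicate block the counts of the genes described were 3 for CDK8 loss alone, 2 for CDK19 loss alone and between control lines, 0 in IECs and 3 for the difference of single knockouts, as without it. In the kinase-dead line and Wnt3-CM, whose numbers stand in the column names alone, r was 0.095 to 0.38 and 0.095 to 0.22. A block by these numbers, chosen after seeing the data, again called 4 in the kinase-dead line, with adjusted p = 2.85e-07 for Chrna4, and left Plbd1 (0.39, adjusted p = 0.000285), Gsn (0.20, adjusted p = 0.0170) and Ms4a8a (-0.34, adjusted p = 0.000676) under the fold cutoff. The kinase-dead IEC comparison was not run. Low counts limit Chrna4, with 0 to 3 counts a library in IECs.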
